A study of Arabidopsis thaliana with 6 samples.

Results

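Seedlings that overexpress TaVAP were set against seedlings of an atvap mutant in 4 of the 6 arrays of the series, the 2 arrays labelled TaVAPOE and the 2 labelled atvap. All 22746 probe sets other than the 64 array controls were compared, which the annotation used here reduced to 13355 genes with a probe set of their own. TaVAPOE is the wild type carrying TaVAP overexpression, atvap is a mutant whose locus and allele the labels do not state, and WT is the wild type, which contributes 2 further arrays. All plants were whole Arabidopsis thaliana seedlings aged 5 days, raised on OS medium under 16 h of light and 8 h of dark with no treatment, and 3 ug of total RNA per sample went onto Affymetrix arrays. The labels call the 2 samples of a genotype biological replicates and give neither the promoter that drives TaVAP, nor the number of independent lines, nor the Arabidopsis accession. If the replicates are not separate cultures, the p-values below measure only technical spread.

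VAP proteins, called VAP27 in plants, are anchored in the membrane of the endoplasmic reticulum (ER). Their cytosolic domain binds partner proteins and tethers the ER to the plasma membrane and other membranes, where lipids are exchanged and the cytoskeleton and endocytosis are coordinated. In Arabidopsis the family has several members, and names that start with Ta usually mark wheat genes. The title of the series concerns TaVAP and stress tolerance, and the pair compared here sets more VAP, from a transgene, against an altered VAP gene.

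The atvap arrays do not resemble each other, so the differences of named genes and the medians of lists are given with and without atvap replicate 1. Across the probe sets the TaVAPOE arrays correlated at Pearson r = 0.979, and each correlated with atvap replicate 2 at 0.954 and 0.951. With atvap replicate 1 the TaVAPOE arrays reached only 0.194 and 0.188, and the atvap arrays correlated with each other at 0.19. Each r is taken over probe sets of 2 arrays and describes those arrays only. Only 4 probe sets reached 6 log units on atvap replicate 1, against 1447 on atvap replicate 2 and 1369 and 1413 on the TaVAPOE arrays, while the 18 hybridisation control probe sets averaged 9.09 there and 5.81 to 6.11 on the other 3 arrays. WT replicate 1 was partly discordant as well (r = 0.521 with WT replicate 2). The green-tissue markers that were measured, RCA and PSAE-1, read 8.92 to 9.17 on the TaVAPOE arrays and 9.16 and 9.55 on atvap replicate 2, but 4.07 and 4.14 on atvap replicate 1. The root-hair gene EXPA7 read 1.69 and 2.42 in TaVAPOE and 3.79 and 2.29 in atvap, and the pollen gene AT59 read below 2 on all 4 arrays.

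The plot of levels by brightness shows what this does to the comparison. Where TaVAPOE genes were binned by their mean level, atvap replicate 2 followed TaVAPOE in every bin, with medians of 8.30 and 8.47 log units in the brightest bin. The median on atvap replicate 1 stayed between 2.65 and 3.34 in all 5 bins. With atvap replicate 1 in the comparison the median TaVAPOE minus atvap difference therefore ran with brightness, at -0.70, 0.04, 1.01, 1.80 and 2.62 log units from the dimmest to the brightest bin. Without it the medians were -0.04, 0.02, 0.05, 0.10 and 0.17.

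**Figure D1:**
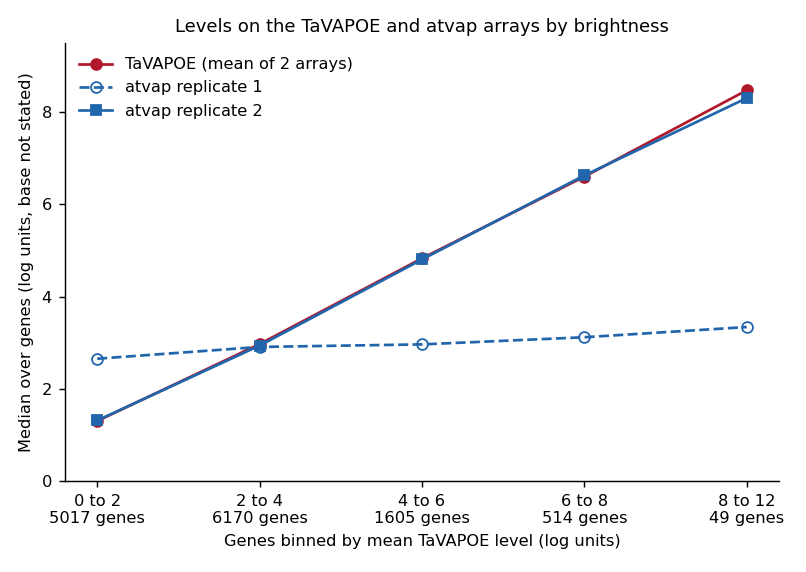
Median level over genes (vertical axis, log units of the deposited scale) in 5 bins of mean TaVAPOE level (horizontal axis, with the number of genes in each) for the mean of the TaVAPOE arrays (red), atvap replicate 1 (open blue circles) and atvap replicate 2 (blue squares). The TaVAPOE and atvap replicate 2 lines overlie each other up to 8.47 and 8.30, while atvap replicate 1 stays between 2.65 and 3.34.

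Differences are TaVAPOE minus atvap in log units of the deposited scale, whose base is not stated, and errors after ± are limma's moderated standard errors. The comparison was fitted over all 6 arrays, with n = 2 per genotype, and again over 4 arrays, the TaVAPOE pair, atvap replicate 2 and WT replicate 2. In the 4-array fit only the TaVAPOE pair gives an estimate of spread (1 degree of freedom), so the lone atvap array is assumed to vary as that pair does. Over 6 arrays 0 of 22746 probe sets passed an adjusted p of 0.05 (0.0% called, smallest adjusted p = 0.817), with 297 at an unadjusted p under 0.05, 175 of them higher in TaVAPOE. Leaving out atvap replicate 1 alone also gave 0 calls, with 241 at an unadjusted p under 0.05. Over 4 arrays 15 probe sets passed, 12 higher in TaVAPOE (0.0528% called) and 3 lower (0.0132% called). With values raised to a floor at 1.66 log units, the 20th percentile of all values, the 4-array fit called 0 (3856 at an unadjusted p under 0.05), and after quantile normalization of those 4 arrays it called 206, 112 higher and 94 lower, among them all 15. No call below holds over all 6 arrays.

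The genes that rose furthest in TaVAPOE read higher on both TaVAPOE arrays than on either atvap array. For genes picked over 6 arrays the naming rule required this. Since atvap replicate 1 has much the same median at every brightness, nothing is drawn from its side. AT2G25510, whose role is not given here, read 9.56 and 9.45 log units in TaVAPOE and 5.50 and 3.20 in atvap, with 3.61 and 3.02 in WT. The groups do not overlap, which the rule that picked this gene over 6 arrays required. The 5.50 on atvap replicate 1 is itself bright for that array, whose 99th percentile is 4.84. Its difference was 6.30 ± 0.19 over 4 arrays (limma adjusted p = 0.0191) and 5.16 ± 0.82 over 6 (adjusted p = 0.865), which would be folds of 79.0 and 35.6 if the log base is 2. ECS1, a gene for a cell-wall protein, followed with 8.42 and 8.51 in TaVAPOE against 3.66 and 2.77 in atvap, and 3.45 and 2.25 in WT. Both TaVAPOE arrays lie above the other 4 arrays. The ECS1 difference was 5.69 ± 0.19 over 4 arrays (adjusted p = 0.0191) and 5.25 ± 0.61 over 6 (adjusted p = 0.865). In these whole-seedling RNAs, more RNA per cell and more cells of a type that uses the gene cannot be told apart.

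AT1G66090, which encodes a TIR-type protein of the family of intracellular immune receptors, read 6.30 and 6.43 in TaVAPOE and 3.26 and 2.43 in atvap. It was 3.93 ± 0.20 higher over 4 arrays (adjusted p = 0.045) and 3.52 ± 0.53 over 6. AT3G44630, another TIR-type receptor gene, read 4.66 and 4.77 in TaVAPOE against 3.08 and 0.93 in atvap, a difference of 3.79 ± 0.19 over 4 arrays (adjusted p = 0.045) and 2.72 ± 1.05 over 6. Both TaVAPOE arrays lie above both atvap arrays for each gene, which the rule over 6 arrays required of AT1G66090. WT replicate 2 read 2.197 and 0.864 for AT1G66090 and AT3G44630, next to atvap replicate 2. ARPN, a plantacyanin, that is a small secreted blue copper protein, read 4.79 and 4.96 in TaVAPOE and 1.96 and 1.23 in atvap (3.64 ± 0.20 over 4 arrays, adjusted p = 0.045, and 3.28 ± 0.52 over 6). For AT3G44630 and ARPN atvap replicate 2 read below 1.66, and with values raised to that floor their 4-array differences were 3.06 and 3.21.

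AT1G66100, a thionin gene, lies next to AT1G66090 on chromosome 1, with no other protein-coding gene between them in the RefSeq table. It read 5.62 and 5.59 in TaVAPOE and 3.02 and 2.41 in atvap, a difference of 3.19 ± 0.19 over 4 arrays that missed the threshold (adjusted p = 0.0508) and of 2.89 ± 0.71 over 6. Thionins are small cysteine-rich antimicrobial peptides. ZW9, of the TRAF-like family, read 4.84 and 5.09 in TaVAPOE and 3.08 and 1.93 in atvap (3.04 ± 0.21 over 4 arrays, adjusted p = 0.0664, and 2.46 ± 0.55 over 6). AT3G28500, for an acidic P2 protein of the large ribosomal subunit, read 6.34 and 6.21 in TaVAPOE and 3.11 and 3.19 in atvap (3.08 ± 0.20 over 4 arrays, adjusted p = 0.0613, and 3.12 ± 0.82 over 6). Both atvap arrays lie below both TaVAPOE arrays, which the rule that picked this gene over 6 arrays required. Since atvap replicate 1 has much the same median at every brightness, the closeness of the atvap values is not taken as agreement. AT1G23960 differed by 2.71 ± 0.19 over 4 arrays (adjusted p = 0.0664) and 2.45 ± 0.46 over 6, and by 2.30 and 2.25 with values raised to the floor. AT1G66850, for a lipid-transfer-type protein, differed by 2.61 ± 0.19 over 4 arrays (adjusted p = 0.0664) and 2.63 ± 0.83 over 6, at 5.66 and 5.69 in TaVAPOE and 3.03 and 3.07 in atvap. It departs from the others in that WT replicate 2 was bright, at 6.75. RALFL32, for a peptide of the rapid alkalinization family, and TBL36, of a family that acetylates wall polymers, were named by the 6-array rule, which takes the largest differences among genes at an unadjusted p under 0.01, at 2.35 ± 0.58 and 2.34 ± 0.48. They differed by 2.269 ± 0.261 and 1.998 ± 0.188 over 4. Of the 12 probe sets that passed as higher, 5 belong to the genes named here, 6 are unnamed and 1 is assigned to several genes. The brightest of the unnamed probe sets read 8.49 and 8.56 in TaVAPOE and 3.46 and 2.81 in atvap.

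On the lower side AT3G48640 stood out, but on atvap replicate 2 alone. It read 1.97 and 2.51 in TaVAPOE, 1.98 and 8.53 in atvap, and 6.51 and 8.16 in WT. The TaVAPOE arrays lie at the level of atvap replicate 1 and far below the other 3 arrays. Its difference was -6.29 ± 0.29 over 4 arrays (adjusted p = 0.045) and -3.02 ± 2.03 over 6 (adjusted p = 0.865). AT1G57650, on the list of TIR-type receptor genes, read 1.78 and 1.82 in TaVAPOE, 3.14 and 5.18 in atvap, and 4.18 and 4.84 in WT. It fell by 3.38 ± 0.19 over 4 arrays (adjusted p = 0.045), and over 6 arrays its difference was -2.36 ± 0.76. The TaVAPOE pair lies below all 4 other arrays for this gene. The other probe set that passed as lower is unnamed here and read 3.77 and 3.91 in TaVAPOE and 2.96 and 7.41 in atvap.

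The other 8 of the 10 genes with the largest negative differences over 4 arrays did not pass, with adjusted p between 0.0664 and 0.122. AT1G50290 read 1.08 and 0.79 in TaVAPOE against 3.86 and 3.73 in atvap (-2.79 ± 0.22 over 4 arrays, -2.85 ± 0.78 over 6). Both of its TaVAPOE values lie below 1.66, and with the floor its differences were -2.07 and -2.13. AT2G38240, for a jasmonate oxidase that inactivates the hormone, read 3.35 and 2.83 in TaVAPOE and 2.96 and 5.60 in atvap (-2.50 ± 0.29 over 4 arrays, -1.19 ± 1.31 over 6). AT5G38710, a proline dehydrogenase gene, read 2.44 and 1.77 in TaVAPOE and 3.38 and 4.59 in atvap (-2.48 ± 0.34 over 4 arrays, -1.88 ± 0.84 over 6). AT3G05320, of the O-fucosyltransferase family, AT5G20700, which encodes an FLZ-domain protein, AT1G02300, a cathepsin B-like protease gene, AT5G12340 and AT3G06070 differed by -2.71, -2.66, -2.52, -2.52 and -2.46 over 4 arrays and by -1.36, -1.26, -0.99, -1.64 and -1.18 over 6. AT3G05320 too is below 1.66 in TaVAPOE. WT replicate 2 lay between 3.22 and 6.09 for these 8, nearer to atvap replicate 2 than to TaVAPOE. Over 6 arrays the rule for named genes found only 4 genes on the lower side. OTP86, whose product edits plastid RNA, differed by -1.97 ± 0.52, AT5G37490 by -2.39 ± 0.62, AT5G15360 by -1.75 ± 0.46 and AT1G44030 by -2.16 ± 0.45. Over 4 arrays these 4 genes, in the same order, differed by -2.10, -1.65, -1.51 and -1.98. Of the 4, AT5G15360 alone was above 1.66 in TaVAPOE, so the size of the other differences is uncertain. The AT1G44030 probe set is of a class that can match several transcripts.

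**Figure D2:**
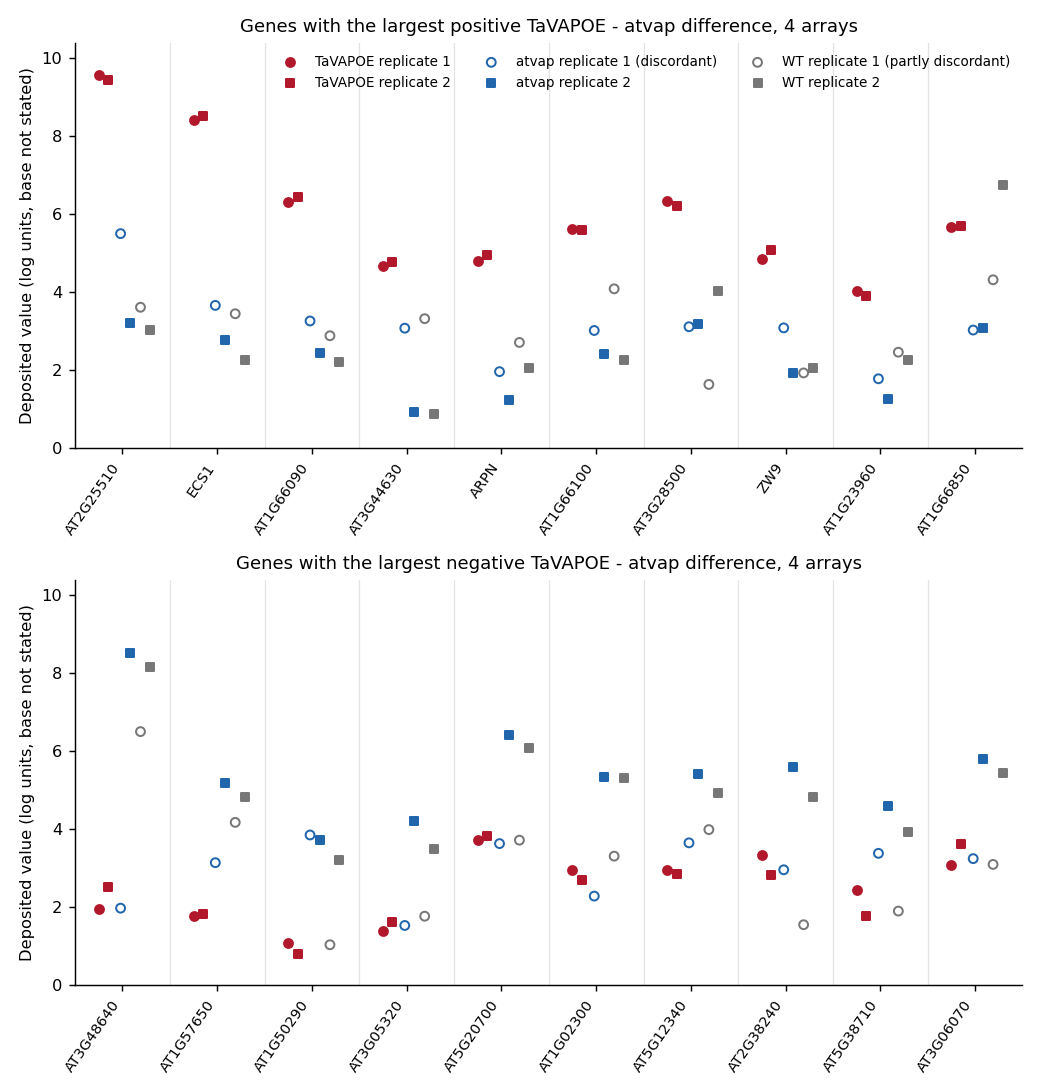
Deposited values (vertical axis, log units) on each array for the 10 genes with the largest positive (top) and the 10 with the largest negative (bottom) TaVAPOE minus atvap difference over 4 arrays. Red marks TaVAPOE, blue atvap and grey WT, with open circles for the discordant arrays; TaVAPOE lies above both atvap arrays for all 10 genes in the top panel, while in the bottom panel atvap replicate 1 often lies among the TaVAPOE arrays, as for AT3G48640 at 1.98.

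Over all genes, a gene is called set apart here where both TaVAPOE arrays lie beyond atvap replicate 2 and the difference is at least 1 log unit. By that rule 241 of 13355 were higher in TaVAPOE (1.8%) and 289 were lower (2.16%). Of the 241, 155 (64.3%) lay above atvap replicate 1 as well, and of the 289, 150 (51.9%) lay below it. At 2 log units or more 32 genes were higher, 30 of them above atvap replicate 1 too, and 22 were lower, 6 of them below atvap replicate 1 too. Since the medians of atvap replicate 1 lie near 3 log units at every brightness, it lies below most genes that are bright in TaVAPOE and above most that are dim, and nothing is drawn from these shares. WT replicate 2 was nearer to atvap replicate 2 than to the TaVAPOE mean for 25 of the 32 genes and for 20 of the 22. A second rule asked that both TaVAPOE arrays lie beyond both atvap arrays. There the 1 log unit was taken from the 6-array difference, which includes atvap replicate 1. A gene then need not differ from atvap replicate 2 by 1 log unit, so its counts are not parts of the 241 and 289. By this rule 985 genes were higher (7.38%) and 1006 lower (7.53%). Shares given below with or against both atvap arrays use it.

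**Figure D3:**
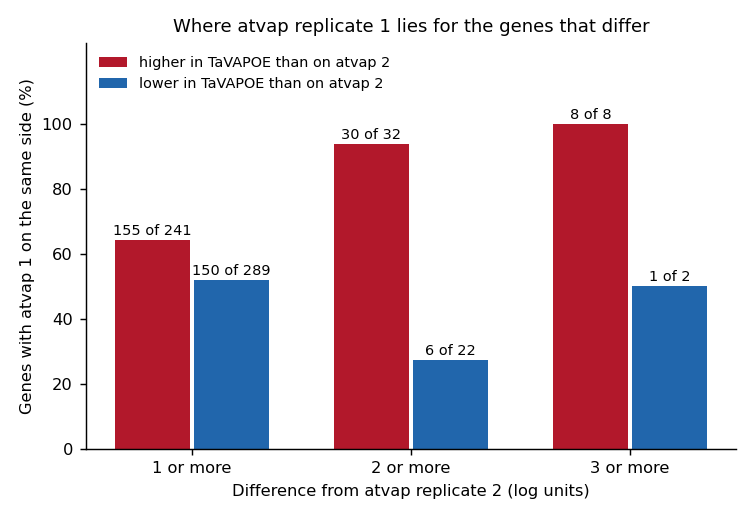
Share of genes (vertical axis, %) for which atvap replicate 1 lies on the same side of both TaVAPOE arrays as atvap replicate 2 does, for genes higher (red) or lower (blue) in TaVAPOE by at least 1, 2 or 3 log units against atvap replicate 2 (horizontal axis). The numbers of genes stand on the bars; 30 of 32 higher genes and 6 of 22 lower genes at 2 log units or more share the side.

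Of 10 VAP27 family loci 7 were measured, and no call is made for any of them. Of the 7, 2 were set apart below atvap replicate 2 (28.6%, against 2.16% of all genes) and 0 above (against 1.8%). With both atvap arrays 0 were set apart below (against 7.53%) and 0 above (against 7.38%). Which of the loci is altered in atvap is not stated. AT1G51270 had the largest difference of the family, at 2.50 and 2.56 in TaVAPOE, 1.83 and 4.39 in atvap, and 2.56 and 3.69 in WT (-1.86 ± 0.19 over 4 arrays, adjusted p = 0.0912, and -0.58 ± 0.93 over 6). TaVAPOE lies below atvap replicate 2 and above atvap replicate 1. The other probe set of AT1G51270 read 2.68 and 1.36 in TaVAPOE and 2.46 and 3.10 in atvap. It differed by -1.08 over 4 arrays and by -0.76 ± 0.77 over 6, and its TaVAPOE arrays lie on both sides of atvap replicate 1. AT5G47180 read 3.38 and 3.40 in TaVAPOE and 1.61 and 4.39 in atvap, which gives -1.001 ± 0.188 over 4 arrays and 0.391 ± 1.006 over 6. AT4G21450, at 4.43 and 4.76 in TaVAPOE, had 3.57 and 4.22 in atvap and was the single family member with both TaVAPOE arrays above both atvap arrays (0.37 ± 0.23 over 4 arrays, 0.70 ± 0.48 over 6). MAMI differed by -0.03 ± 0.22 over 4 arrays and by 0.99 ± 0.76 over 6, with 1.60 on atvap replicate 1. AT4G05060 and AT4G00170 differed by 0.02 ± 0.21 and -0.24 ± 0.22 over 4 arrays and by -0.15 ± 0.47 and -0.06 ± 0.47 over 6. AT2G23830 read at most 1.23 on these 4 arrays, below the floor in both groups. The family's median was -0.21 over 4 arrays and -0.06 over 6. No family member was dim on atvap replicate 2 while bright in TaVAPOE. The TaVAP transcript was not analysed here.

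Median differences of membrane-contact and traffic genes from atvap replicate 2 lay within 0.5 log units of 0, as for most lists. Of 5 contact-site genes, which are 3 NET3 genes, of a family of actin-binding proteins, and 2 for tethers related to synaptotagmins, none was 1 log unit apart from atvap replicate 2, and the median difference was 0.01 over 4 arrays and -0.11 over 6. The median over all genes was -0.00 and -0.11 in the same fits. Over all genes 1.8% were set apart above atvap replicate 2 and 2.16% below, so the count for these 5 genes is not read as a result. Of 14 genes for SNARE-related, exocyst and coat proteins, 12 were lower over 4 arrays (median -0.23) and 6 over 6 (median 0.20). Over all 13355 genes 6702 were lower over 4 arrays and 7525 over 6. KEU, which assists membrane fusion at cell division, read 4.05 and 4.18 in TaVAPOE and 3.66 and 5.35 in atvap (-1.23 ± 0.19 over 4 arrays, -0.39 ± 0.94 over 6). The 33 genes for vacuolar sorting and PRA1 proteins had a median of -0.12 over 4 arrays and 0.56 over 6. Among them VPS2.2, of the ESCRT machinery, was the only gene set apart from atvap replicate 2 by 1 log unit or more (3.03%, against 1.8% of all genes). It read 3.34 and 3.54 in TaVAPOE and 1.73 and 1.62 in atvap (1.82 ± 0.20 over 4 arrays, adjusted p = 0.096, and 1.76 ± 0.56 over 6).

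None of the 11 genes for ER stress and folding stood 1 log unit apart from atvap replicate 2, and their median difference was -0.07 over 4 arrays and 0.57 over 6. Over all genes 1.8% were set apart above and 2.16% below, so this count is not read as a result. With both atvap arrays 2 of the 11 were set apart above (18.2%, against 7.38%) and 0 below (against 7.53%). BZIP60, the transcription factor activated by splicing when unfolded proteins collect in the ER, read 6.96 and 6.69 in TaVAPOE and 2.44 and 5.94 in atvap. That is 0.88 ± 0.22 over 4 arrays (adjusted p = 0.223) and 2.63 ± 1.27 over 6. Both TaVAPOE arrays lie above atvap replicate 2 and far above atvap replicate 1. DER2.1, for a derlin that helps to export misfolded proteins, differed by -0.33 ± 0.22 over 4 arrays and 0.30 ± 0.59 over 6.

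Genes for TIR-type immune receptors moved in both directions. Of 78 measured, 7 were set apart above atvap replicate 2 (8.97%, against 1.8% of all genes), by 1.31 to 3.93 log units, and 5 below it (6.41%, against 2.16%), by 1.17 to 3.38. AT1G66090 and AT3G44630 lay furthest above atvap replicate 2, and AT1G57650 lay furthest below it. The list's median was -0.06 over 4 arrays and -0.25 over 6. With both atvap arrays, 5 genes were set apart above (6.41%, against 7.38%) and 12 below (15.4%, against 7.53%). AT3G44400, a TIR-type receptor gene, read 3.14 and 2.83 in TaVAPOE and 2.91 and 0.80 in atvap, so that its groups overlap once atvap replicate 1 is included (2.19 ± 0.23 over 4 arrays, adjusted p = 0.0912, and 1.13 ± 0.97 over 6). With values raised to the floor, which lies above its atvap replicate 2 value, the differences were 1.33 and 0.70. Most of these genes are dim, since only 27 of 78 exceeded the median of all values. Of the 5 set apart below atvap replicate 2, AT1G57650 alone read above 1.66 on both TaVAPOE arrays. Of the 7 set apart above, only AT1G66090 and AT1G57630 read above 1.66 on atvap replicate 2. The size of the other differences, and so the shares set apart, are uncertain.

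Defence and jasmonate genes showed no shared direction. Among 16 thionin and defensin genes, 3 were set apart above atvap replicate 2 (18.8%, against 1.8% of all genes) and none below (against 2.16%). With both atvap arrays 2 were set apart above (12.5%, against 7.38%), and the median was 0.13 over 4 arrays and -0.04 over 6. The 3 set apart above atvap replicate 2 were AT1G66100, LCR69, a plant defensin gene, and LCR66. LCR69 read 8.50 and 8.69 in TaVAPOE and 2.91 and 7.31 in atvap (1.28 ± 0.20 over 4 arrays and 3.48 ± 1.41 over 6). LCR66 read 2.31 and 2.38 in TaVAPOE and 3.607 and 0.795 in atvap, so atvap replicate 1 lies above both TaVAPOE arrays. Its 4-array difference was 1.55, but 0.69 with values raised to the floor, which lies above its atvap replicate 2 value. The share set apart above is therefore uncertain. Of 12 jasmonate genes, for which no call is made, 4 were higher and 8 lower in both fits (median -0.13 over 4 arrays, -0.12 over 6). Over all 13355 genes 6653 were higher and 6702 lower over 4 arrays, and 5829 and 7525 over 6. Of the 12, 2 were set apart below atvap replicate 2 (16.7%, against 2.16% of all genes) and 0 above (against 1.8%). With both atvap arrays 1 was set apart below (8.33%, against 7.53%) and 0 above (against 7.38%). Besides AT2G38240, the jasmonate oxidase gene AT5G05600 was set apart below atvap replicate 2, at 5.00 and 4.83 in TaVAPOE and 2.34 and 6.87 in atvap. Its difference was -1.95 ± 0.20 over 4 arrays (adjusted p = 0.0912) and 0.312 ± 1.503 over 6. Of 5 genes on the salicylate list, ZW9 and the chitinase gene CHI went opposite ways, CHI at 3.72 and 3.77 in TaVAPOE and 2.36 and 5.37 in atvap (-1.63 ± 0.19 over 4 arrays, -0.12 ± 1.20 over 6). WRKY53, a transcription factor of defence and senescence, read 6.62 and 6.64 in TaVAPOE and 2.67 and 6.03 in atvap (0.60 ± 0.19 over 4 arrays, 2.28 ± 1.21 over 6). GRX480, a glutaredoxin gene induced by salicylate, read 6.09 and 6.22 in TaVAPOE and 1.99 and 7.35 in atvap, which gives -1.19 ± 0.19 over 4 arrays and 1.48 ± 1.79 over 6.

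Cell-wall genes were set apart in both directions as well, ECS1 by the most. Of 97 measured, 10 lay at least 1 log unit above atvap replicate 2 (10.3%, against 1.8% of all genes) and 6 below it (6.19%, against 2.16%), while the median of the list was -0.03 over 4 arrays and 0.07 over 6. Against both atvap arrays 13 were higher (13.4%, against 7.38%) and 2 lower (2.06%, against 7.53%). AT4G24780, a pectate lyase gene, read 5.20 and 5.17 in TaVAPOE and 2.21 and 3.18 in atvap (2.004 ± 0.188 over 4 arrays, adjusted p = 0.0875, and 2.491 ± 0.823 over 6). EXPA4, for an expansin that loosens walls, read 4.34 and 4.19 in TaVAPOE and 2.85 and 2.52 in atvap (1.74 ± 0.20 over 4 arrays, adjusted p = 0.0962, and 1.58 ± 0.54 over 6). For both genes TaVAPOE lies above both atvap arrays. The 6 wall genes on the lower side differed by 1.004 to 1.626 log units, and for none of them did both TaVAPOE arrays lie below atvap replicate 1.

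Copper-protein genes formed the only list of 47 whose median lay beyond 0.5 log units over 4 arrays. All 4 were higher than atvap replicate 2, against 6653 of all 13355 genes, with a median of 1.44. Only ARPN and CCS, 2 of the 4, were set apart above atvap replicate 2. CuAO1 and the laccase gene LAC16 were chosen for mention after their values were seen. CuAO1 differed by 0.50 over 4 arrays and by 0.26 over 6. LAC16 differed by 0.42 over 4 arrays, and by 0.03 with values raised to the floor. The 4-array median lies between the CCS and CuAO1 differences, so no shift of the whole list is read from it. Over 6 arrays 3 of the 4 were higher, against 5829 of all 13355 genes, with a median of 1.098, and LAC16 differed by -0.11 ± 0.78. CCS, the chaperone that loads copper into superoxide dismutase, read 5.06 and 5.17 in TaVAPOE and 3.62 and 2.74 in atvap (2.38 ± 0.19 over 4 arrays, adjusted p = 0.0736, and 1.93 ± 0.58 over 6). WT read 3.65 and 2.67, so only TaVAPOE exceeded 5. Among 12 genes for iron, zinc and other metals the median was 0.04 over 4 arrays and -0.27 over 6, and AT1G47400, for a peptide of the iron-deficiency response, read 2.45 and 2.49 in TaVAPOE and 3.08 and 4.47 in atvap (-1.998 ± 0.188 over 4 arrays, adjusted p = 0.0875, and -1.305 ± 0.594 over 6).

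The 8 cold-response genes include genes for dehydrins and other proteins that protect cells during freezing. All 8 were lower than atvap replicate 2 (median -0.40), against 6702 of all 13355 genes. Of the 8, 1 was set apart below atvap replicate 2 (12.5%, against 2.16% of all genes) and 0 above (against 1.8%). No call is made for these genes. COR15A, for a chloroplast-protecting protein, read 5.86 and 6.07 in TaVAPOE, 4.32 and 7.22 in atvap, and 4.55 and 6.61 in WT (-1.25 ± 0.21 over 4 arrays, adjusted p = 0.143). COR47 and LTI30, both dehydrin genes, differed by -0.88 ± 0.19 and -0.83 ± 0.21. On atvap replicate 1, 7 of the 8 cold genes read lowest of the 4 arrays, against 4682 of all 13355 genes. With that array included the list's median became 1.62, with COR15A at 0.20 ± 1.13, COR47 at 1.36 ± 1.48 and LTI30 at 1.49 ± 1.57. Here the direction rests on which atvap array is used.

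Photosynthesis showed the same dependence. The 12 nuclear genes for photosystem, carbon-fixation and ATP synthase proteins had a median of -0.02 over 4 arrays and 2.50 over 6. All 12 read lowest on atvap replicate 1, against 4682 of all 13355 genes. RCA, for the activase of Rubisco, read 8.92 and 9.09 in TaVAPOE and 4.07 and 9.55 in atvap (-0.54 ± 0.20 over 4 arrays, 2.201 ± 1.663 over 6). LHCB4.2, an antenna protein of photosystem II, was the exception within the list, at 7.49 and 7.61 in TaVAPOE and 2.32 and 6.34 in atvap (1.21 ± 0.19 over 4 arrays, adjusted p = 0.14, and 3.22 ± 1.44 over 6). PORB, the light-dependent enzyme of chlorophyll synthesis, read 7.66 and 7.47 in TaVAPOE and 2.85 and 6.72 in atvap (0.84 ± 0.20 over 4 arrays, 2.77 ± 1.38 over 6). Of 69 plastid-encoded genes 44 were lower over 4 arrays and 16 over 6, against 6702 and 7525 of all 13355 genes. The list's medians were -0.10 and 0.73. With both atvap arrays 2 were set apart below (2.9%, against 7.53% of all genes) and 13 above (18.8%, against 7.38%). Against atvap replicate 2 alone 1 was set apart above (1.45%, against 1.8%) and 4 below (5.8%, against 2.16%). They include psaJ, a small photosystem I subunit, at 4.29 and 4.47 in TaVAPOE and 2.696 and 6.205 in atvap (-1.83 ± 0.20), ndhD, a subunit of the plastid NDH complex (-1.72 ± 0.19), and psbA, the D1 protein of photosystem II (-1.53 ± 0.24), with adjusted p of 0.0947, 0.0947 and 0.139. Over 6 arrays these differences were -0.07 ± 1.24, -0.69 ± 1.05 and 0.32 ± 1.39.

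**Figure D4:**
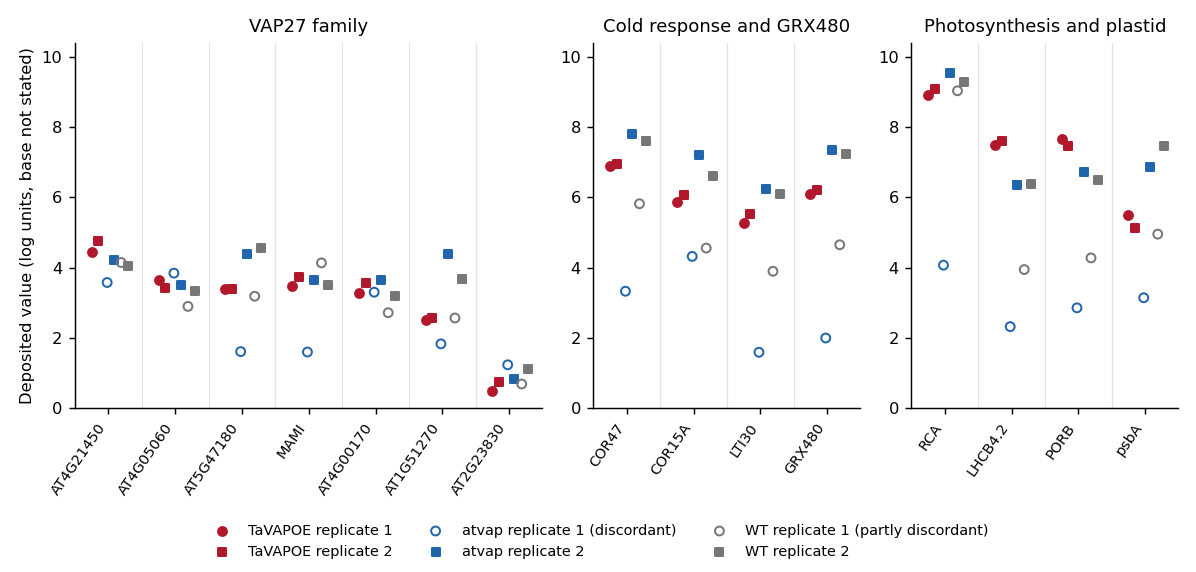
Deposited values (vertical axis, log units) on each array for the VAP27 family (left), 3 cold-response genes and GRX480 (middle), and 4 genes of photosynthesis and the plastid (right). Red marks TaVAPOE, blue atvap and grey WT; in the middle and right panels atvap replicate 1 (open blue circle) is the lowest array for every gene, as for RCA at 4.07, and TaVAPOE and atvap replicate 2 lie within 2 log units of each other in all panels.

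Single genes of other groups differed from atvap replicate 2 by about 1 log unit or more. SWEET11, which exports sucrose for phloem loading, read 4.50 and 4.63 in TaVAPOE and 3.08 and 6.38 in atvap (-1.81 ± 0.19 over 4 arrays, adjusted p = 0.0912, and -0.16 ± 1.28 over 6). RALFL33, a RALF peptide gene like RALFL32, read 6.95 and 7.07 in TaVAPOE and 2.81 and 7.97 in atvap (-0.96 ± 0.19 over 4 arrays, 1.62 ± 1.71 over 6). The relatives thus lie on opposite sides of atvap replicate 2. ORA47, a transcription factor of the ERF family, read 6.92 and 7.01 in TaVAPOE and 3.20 and 5.94 in atvap (1.03 ± 0.19 over 4 arrays, 2.39 ± 1.13 over 6). HTB1, a histone H2B gene, read 4.77 and 4.69 in TaVAPOE and 3.35 and 3.65 in atvap (1.08 ± 0.19 over 4 arrays, 1.23 ± 0.44 over 6). Of the 15 histone and cell-cycle genes 12 were higher over 4 arrays (median 0.43) and 9 over 6 (median 0.46), against 6653 and 5829 of all 13355 genes. GLR2.8, of the glutamate receptor-like channels, read 2.17 and 2.40 in TaVAPOE and 4.39 and 3.56 in atvap (-1.27 ± 0.21 over 4 arrays, -1.69 ± 0.60 over 6). TET12, a tetraspanin gene, read 1.17 and 1.19 in TaVAPOE and 2.40 and 2.49 in atvap (-1.32 ± 0.19 over 4 arrays, -1.27 ± 0.57 over 6). Its TaVAPOE values lie below 1.66, and with the floor the differences were -0.83 and -0.79, under 1 log unit. Of the 15 tetraspanin genes 12 were lower over 4 arrays (median -0.36) and 9 over 6 (median -0.37), against 6702 and 7525 of all 13355 genes. For ORA47, HTB1, GLR2.8 and TET12 both atvap arrays lie on the same side of TaVAPOE. Since atvap replicate 1 has much the same median at every brightness, nothing is drawn from its side. No call is made for any gene of this group.

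The medians of the 47 lists, which hold 916 different genes, spanned a narrower range without the discordant array, and 33 of the 47 lay nearer to 0. Over 4 arrays their medians ran from -0.40 to 1.44, and 46 of 47 were within 0.5 log units of 0. Over 6 arrays they ran from -0.77 to 2.50, and 22 of 47 medians had the opposite sign. The lists with bright genes, among them photosynthesis, cold response and the plastid-encoded genes, have the higher 6-array medians, and those with dim genes, such as cytochrome P450 (-0.77) and auxin (-0.58), the lower ones. The part of brightness on atvap replicate 1 in each list's shift was not tested.

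**Figure D5:**
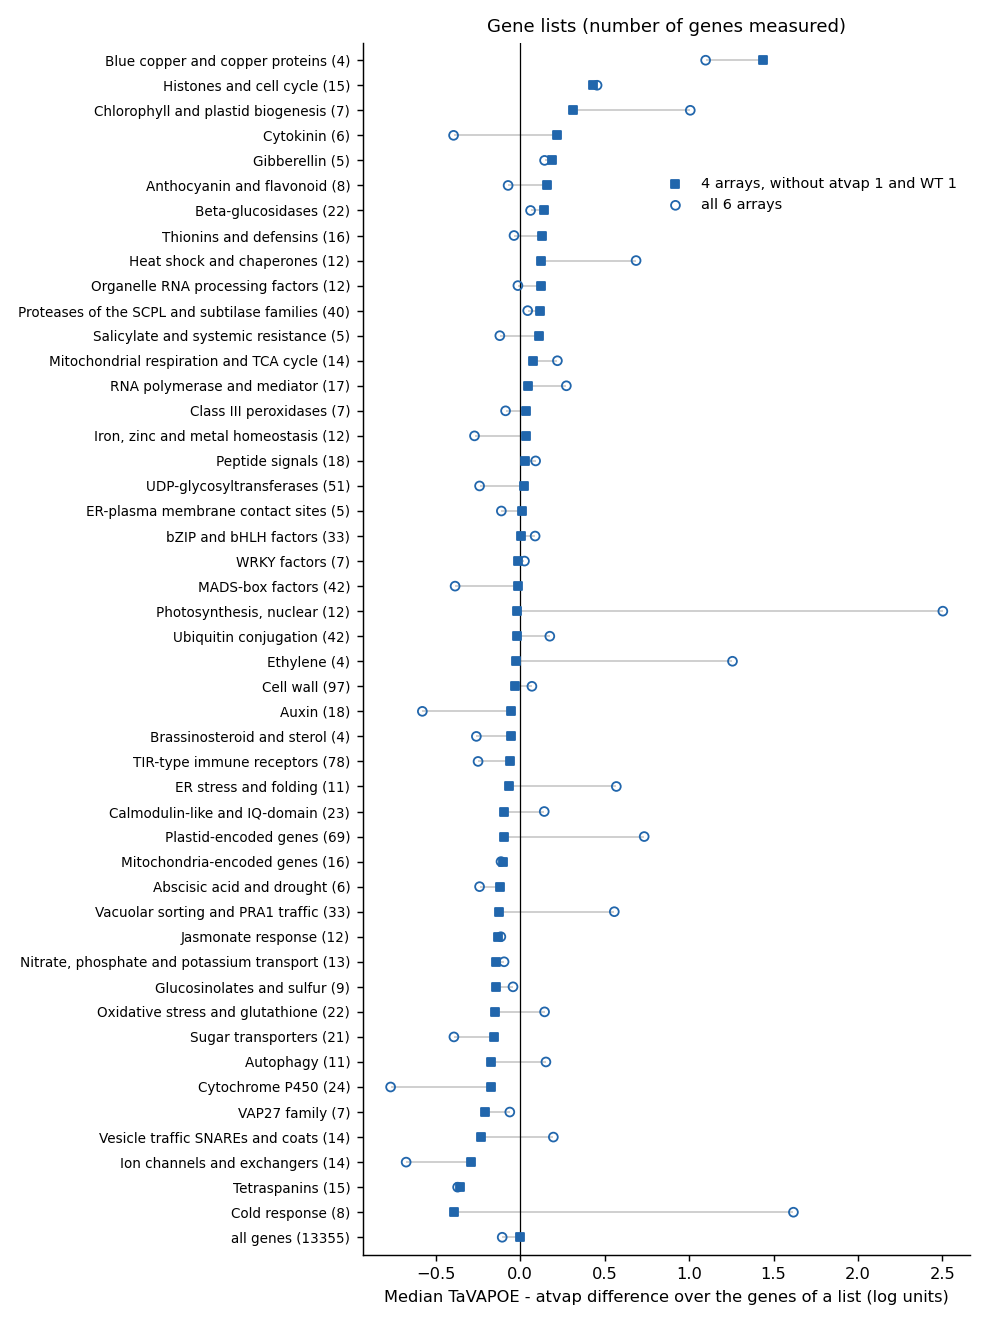
Median TaVAPOE minus atvap difference (horizontal axis, log units) over the genes of each list (vertical axis, number of genes measured in parentheses) over 4 arrays (filled squares) and over all 6 arrays (open circles), with all genes in the bottom row. Squares lie within 0.5 log units of 0 for 46 of 47 lists, while circles run from -0.77 to 2.50.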

How the data were processed

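Total RNA from whole seedlings was hybridised to 6 Affymetrix arrays, 2 for each genotype. The deposited values are scores on a log scale of unstated base, 1 per probe set and array and the sources used here do not say how they were summarised or normalized. The only tool in the submitters' processing notes is Agilent Feature Extraction, without a version, and it does not read Affymetrix arrays. Values were kept as deposited. Folds assume base 2. Probe sets were named by GEO's annotation of the platform, with symbols updated from the RefSeq table of TAIR10.1 by Entrez identifier: 13513 probe sets had 1 gene, 503 several and 8730 none, and 13436 of the 13513 matched. The probe set with the highest mean stood for a gene, which left 13355 genes.

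Differences were fitted with limma 3.58.1 in R 4.3.3 on all 22746 probe sets, 1 mean for each genotype (3 residual degrees of freedom over 6 arrays) and Benjamini-Hochberg adjustment at 0.05. A fit without atvap replicate 1 and WT replicate 1 stands beside it, and gives the same differences, errors and p as TaVAPOE and atvap replicate 2 alone. The design expected log2 values; limma's test does not depend on the base. The script was tested on simulated data. The genes, lists and rules were chosen with earlier results of these data known, and list membership was corrected after values had been seen.

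Named genes were all VAP27 members, then up to 10 per direction in each fit, by size, among those past the threshold or at an unadjusted p under 0.01, with non-overlapping groups and the brighter group above 2.80, the median of all values, and up to 4 members per list with the smallest 4-array p. Only lists of at least 3 measured genes were used. The 2 unnamed probe sets were chosen after their values were seen. The number of arrays limits the precision; no detection calls were used.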

Additional observations from a re-analysis of the deposited data

How the results depend on the processing

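The count of probe sets past the threshold was 0 over 6 arrays and 0 to 15 as arrays were left out. It was 15 with TaVAPOE and atvap replicate 2 alone, 206 after quantile normalization of the 4 arrays (smallest adjusted p = 0.00222) and 1 with 16 added on the linear scale (smallest adjusted p = 0.035). It was 0 with a floor on the 4 arrays (3856 at an unadjusted p under 0.05), 0 without atvap replicate 2 (6195), 0 without either TaVAPOE array (45 and 37), and 0 over 6 arrays with a floor, quantile normalization, median centring, array weights, trend and robust moderation, a filter at the 40th percentile or ambiguous probe sets left out, and 0 over the 4 TaVAPOE and atvap arrays alone (170 to 812 at an unadjusted p under 0.05). With the replicate number as a block the count was 0 (smallest adjusted p = 0.485, 935 at an unadjusted p under 0.05). The number was not taken to pair TaVAPOE with atvap arrays, since their deviations correlated at r = 0.088 and the labels name no shared batch. The r was 0.014 between TaVAPOE and WT and 0.580 between atvap and WT, whose replicate 1 arrays are the discordant ones. The 2 alternatives that normalize or floor the 4 arrays were chosen after seeing the data.

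Of 62 genes 37 kept their direction under every alternative and 25 did not, nearly always by which atvap array was left out. With atvap replicate 1 left out and with atvap replicate 2 left out the differences were -1.001 and 1.783 for AT5G47180, -0.0325 and 2.01 for MAMI, -0.54 and 4.94 for RCA, -0.959 and 4.202 for RALFL33, -0.88 and 3.60 for COR47, -1.25 and 1.65 for COR15A, -1.19 and 4.16 for GRX480, -1.53 and 2.18 for psbA, -1.95 and 2.58 for AT5G05600, -0.83 and 3.81 for LTI30, -0.33 and 0.93 for DER2.1, and 0.0189 and -0.31 for AT4G05060. The first value of each pair holds with atvap replicate 2 alone and with the floor on the 4 arrays. After quantile normalization of the 4 arrays it was -0.99 for AT5G47180, -0.0523 for MAMI, -0.48 for RCA, -0.96 for RALFL33, -0.90 for COR47, -1.23 for COR15A, -1.18 for GRX480, -1.50 for psbA, -1.94 for AT5G05600, -0.81 for LTI30 and -0.34 for DER2.1. In the same order of left-out arrays the pairs were -0.24 and 0.12 for AT4G00170, -1.86 and 0.70 for AT1G51270, -6.29 and 0.26 for AT3G48640, -2.66 and 0.13 for AT5G20700, -2.52 and 0.54 for AT1G02300, -2.50 and 0.13 for AT2G38240, -2.46 and 0.10 for AT3G06070, -1.81 and 1.48 for SWEET11, -1.83 and 1.68 for psaJ, -1.72 and 0.35 for ndhD, -1.23 and 0.45 for KEU, and -1.63 and 1.38 for CHI. Without TaVAPOE replicate 1 the difference turned to 0.0783 for AT4G00170 and 0.0172 for psaJ. Quantile normalization of 6 arrays gave -0.84 for COR15A, 0.088 for psaJ and 0.22 for CHI, and 16 added gave -0.003 for AT5G47180, -0.0277 for psbA and -0.19 for AT5G05600. AT2G23830 is below the floor on every array, which gives 0.0 with it, against -0.62 to -0.21 as arrays were left out. Of 940 list medians computed under alternatives 124 moved past the spread and 816 did not. Beyond the array left out, the cause of these changes was not tested.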
